A study of Mus musculus with 19 samples.

Results

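Liver transcripts of mice without 5-lipoxygenase were compared with those of wild-type B6 mice while both were kept on normal chow. The comparison rests on 10 of the 19 arrays of the series, namely those whose reference channel held the chow pool. The knockout group was 5 mice of strain B6 5LO KO and the wild-type group 5 mice of strain B6 WT, all on normal chow for 16 weeks and 20 weeks old, with liver as the tissue. The other 9 arrays held 5 knockout and 4 wild-type mice of the same age and duration on a high fat, cholesterol and cholate diet, called atherogenic, and are used only where a value on chow is set beside it. Each array had 2 colours, with Cy5 labelling the RNA of 1 mouse and Cy3 a pool of livers of wild-type mice on the same diet. The pool was made from 5 livers for the chow arrays and from 4 for the atherogenic arrays. Values below are log2 of the mouse's signal over that of the pool where nothing else is said, so 0 is the level of the pool, and a difference is knockout minus wild type. The labels do not say whether the pooled mice on chow were the same 5 wild-type mice that were hybridised singly. They name no substrain of B6 and no sex, and do not describe how the knockout was made or bred. The column headers carry animal marks that no label repeats, so mice of a group are called A to E in column order.

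5-Lipoxygenase, the product of Alox5, oxidises arachidonic acid to leukotriene A4 with the help of the membrane protein FLAP (Alox5ap). Lta4h turns leukotriene A4 into leukotriene B4, a neutrophil attractant, and Ltc4s turns it into the cysteinyl leukotrienes, which act through Cysltr1 and Cysltr2. In liver the pathway is active mainly in Kupffer cells and other leukocytes, while hepatocytes take up and break down leukotrienes. In bulk liver RNA, fewer cells of a type and less RNA per cell cannot be told apart.

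The arrays of the knockout mice were unequal. Between 23107 and 23511 probes of 23568 were measured on each array, and the number of arrays limits the precision. The log2 ratios had an SD over probes of 0.318, 0.538, 0.373, 1.01 and 0.475 in knockout mice A to E, against 0.349, 0.263, 0.256, 0.282 and 0.258 in wild-type mice A to E. Knockout D therefore stood apart by the width of its ratios, with 32.4% of probes under 0.01 by the authors' deposited p-value, against 0.658% to 16.5% on the other 9 arrays. Ratios of different knockout mice correlated over probes at r between 0.25 and 0.71. Wild-type A correlated at 0.59, 0.56 and 0.57 with knockout B, D and E, and at only 0.00 to 0.18 with the other wild-type mice, so it deviated from the pool in part in the direction of these knockouts. These correlations are across probes that share a pool, and they describe the arrays. Values without these mice are given for the leading genes and lists, and the calls that hang on knockout D are counted below. Of the 25 hepatocyte markers listed, 18 were tested, and only 2 of these had a mean intensity below that of the median probe tested. Apoa1, Apoa2 and Cyp2e1, 3 transcripts that define hepatocytes, were brighter than at least 99.9% of probes.

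**Figure D1:**
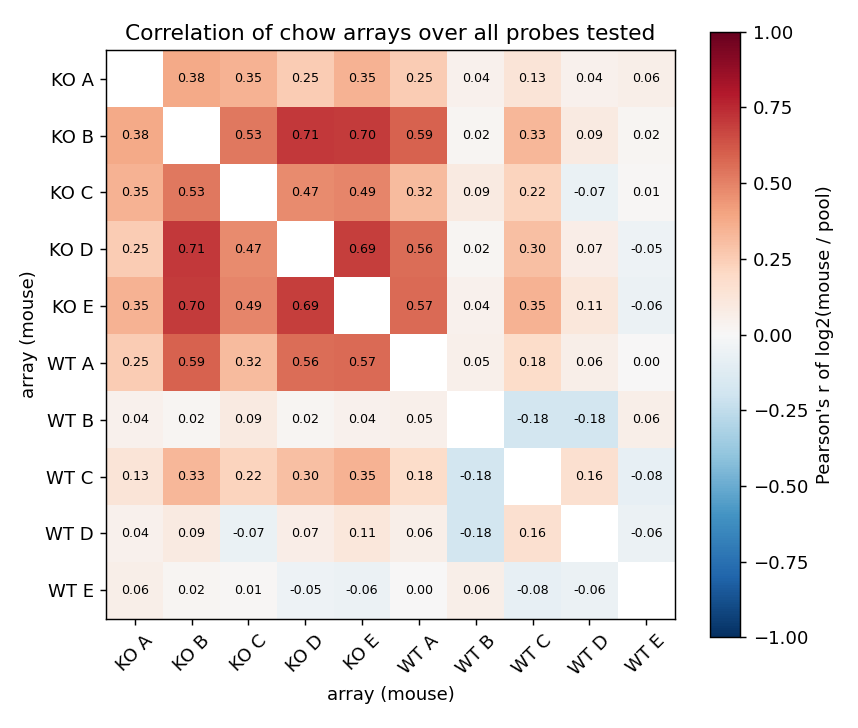
Pearson correlation over probes of the log2 ratios of each pair of chow arrays, with the 5 knockout mice (KO) before the 5 wild-type mice (WT) on both axes. Knockout B, D and E correlate at 0.69 to 0.71 with each other and at 0.56 to 0.59 with wild-type A, while pairs of wild-type mice lie between -0.18 and 0.18.

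Alox5, the targeted gene, was read at low intensity and did not separate the genotypes. Its 1 probe had an intensity of 0.03, 0.05, 0.04, 0.06 and 0.07 in knockout mice A to E, and of 0.04, 0.03, 0.05, 0.04 and 0.04 in wild-type mice A to E, with 41.7% of probes dimmer. As log2 ratios these were 0.00, 0.00, 0.00, 0.26 and 0.49 in the knockout and 0.00, -0.42, 0.00, 0.42 and -0.32 in the wild type. The groups overlapped, and the highest value belonged to a knockout mouse. The means were 0.15 ± 0.22 in knockout and -0.06 ± 0.33 in wild type (SD, n = 5 each), a difference of 0.21 (95% interval -0.10 to 0.52). An exact two-sided permutation test over the mice gave p = 0.317, where 0.00794 is the smallest value that this design allows. The sources used here do not place the probe within the gene, so it is unknown whether it lies in the altered part, and the probe does not check the genotype labels.

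Genes beside Alox5 on chromosome 6 were examined because a knockout allele is passed on together with its neighbours. Of the 100 tested genes nearest to Alox5 by order, 50 on each side, 4 passed an adjusted p of 0.05, which is 4%, beside 1.17% of all genes tested. At an unadjusted p of 0.05 the share was 28% of the neighbours, beside 28.8% of all genes. Gm7298, a predicted gene, averaged -2.44 ± 0.74 in knockout and -0.23 ± 0.43 in wild type (SD, n = 5 each), a difference of -2.21 (SE 0.45, adjusted p 0.0347). Irak2, a kinase that passes on signals of the interleukin 1 and Toll-like receptors, differed by -0.75 (SE 0.16, adjusted p 0.0398). Erc1, a scaffold protein, was read by probes that disagreed, at 1.14 (adjusted p 0.0427) and -0.43 (adjusted p 0.0591). Its direction is therefore unsettled. Gm7298, Irak2 and Erc1 were named here for their place beside Alox5.

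Over all genes, the knockout livers on chow differed from wild type in 218 named genes of 18606 tested, or 1.17%, when a Benjamini-Hochberg adjusted p below 0.05 was required. Of these, 119 (0.64%) rose and 99 (0.532%) fell in the knockout. By probe the count was 263 of 23344 (1.13%), including 44 probes without a gene symbol, with 150 that rose (0.643%) and 113 that fell (0.484%). Differences ranged in size from 0.37 to 2.22, and 84 probes moved by over 2-fold. The 5 knockout values did not overlap the 5 wild-type values at 204 of the 263 probes, beside 3.39% of all probes tested. As the 263 were chosen by these same values, that count only describes them and adds no support. Among all genes, 1.88% had every knockout mouse above and 1.83% every knockout mouse below the wild-type mice. The transcripts were mostly of middling brightness: the median called probe was brighter than 65.9% of probes, and 98 called probes had a mean intensity under 0.1, where rounding makes ratios coarse.

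The size of the change differed between the knockout mice. Over the 150 probes that rose, the median ratios were 0.58, 1.00, 0.62, 1.23 and 0.78 in knockout A to E, and 0.12, 0.00, 0.10, 0.00 and 0.00 in wild-type A to E. Over the 113 that fell they were -0.58, -0.90, -0.65, -1.32 and -0.78 in knockout A to E, and -0.16, 0.00, -0.01, 0.00 and 0.00 in wild-type A to E. Every knockout mouse had a median away from the pool in both sets, and these medians only describe probes chosen by the same values. Knockout D held the highest value at 115 of the probes that rose (76.7%) and the lowest at 79 of those that fell (69.9%), beside 57.1% of all probes at which it lay farthest from 0 among the knockouts. The count of probes that passed hung on single mice. It was 3854, 4, 1220, 82 and 83 without knockout A, B, C, D and E, and 781, 3, 68, 3 and 3 without wild-type A, B, C, D and E. Without knockout D and wild-type A together 312 passed, of which 150 were among the 263. With the 10 chow arrays fitted alone, 5 probes passed. Of the 51 named genes that passed, 31 lost the call without knockout D, with adjusted p between 0.0502 and 0.0842. The 20 that kept it without knockout D were Wfdc2, Wnt6, Bach1, Dgkh, Cdt1, Hunk, Hnrpdl, Slc30a1, Col27a1, Myo1e, Fam83b, Vpreb2, Paip1, Magi1, Lrrc16b, Soat2, Cyp2c69, Hnrnpd, Mbnl2 and Irak2. Of the 51, the call was lost by 0, 48, 0 and 29 without knockout A, B, C and E. Without wild-type A, B, C, D and E it was lost by 2, 49, 30, 48 and 48. Most of the 20 therefore did not keep it when some other mouse was left out. No probe passed once the arrays were scaled to one another, by quantiles (lowest adjusted p 0.146, with 2360 probes at an unadjusted p under 0.05) or by their spread (lowest adjusted p 0.797, with 1440 probes).

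**Figure D2:**
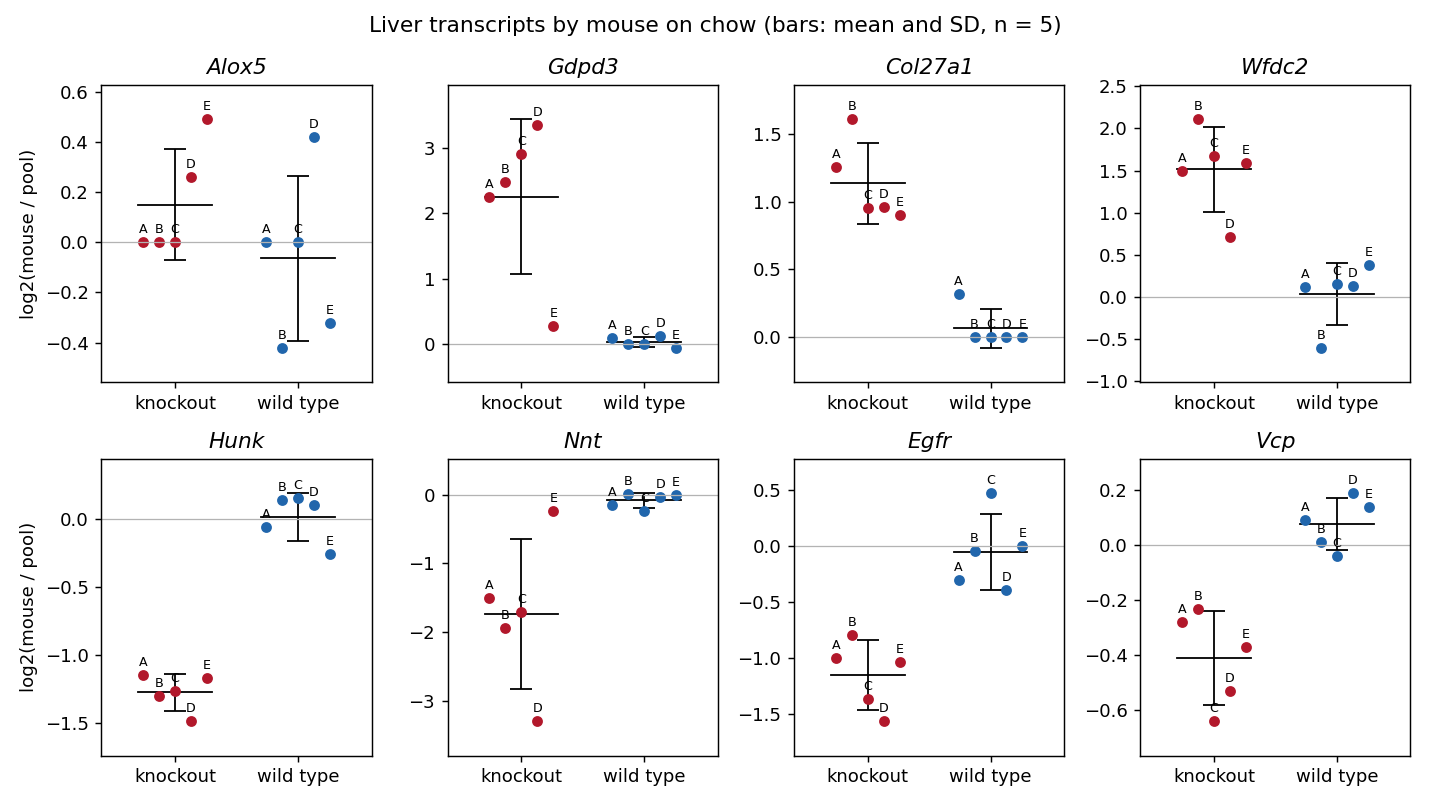
Log2 ratio of mouse to pool for 8 genes, 1 point per mouse with its letter, knockout on the left and wild type on the right of each panel; horizontal bars are means and error bars SDs (n = 5 each). Alox5 overlaps between genotypes, Gdpd3, Col27a1 and Wfdc2 lie higher and Hunk, Nnt, Egfr and Vcp lower in the knockout mice, and knockout E sits near the wild-type mice for Gdpd3 and Nnt.

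Col27a1 and Hunk were the most stable of these genes, as both passed in all 10 fits that left out a single mouse, and no other called probe did. Col27a1, a fibrillar collagen of cartilage and other matrices, had ratios of 1.26, 1.61, 0.95, 0.96 and 0.90 in knockout A to E, and of 0.32, 0.00, 0.00, 0.00 and 0.00 in wild-type A to E. The lowest knockout mouse lay well above the highest wild-type mouse, which was A. The mean was 1.14 ± 0.30 in knockout and 0.06 ± 0.14 in wild type (SD, n = 5 each), a rise of 1.07 (SE 0.12, adjusted p 0.00133), or 2.11-fold. Hunk, a kinase of the AMPK-related family, had ratios of -1.15, -1.30, -1.27, -1.49 and -1.17 in knockout A to E, and of -0.06, 0.14, 0.15, 0.10 and -0.26 in wild-type A to E. All 5 knockout mice sat within a narrow range below all wild-type mice. The mean was -1.27 ± 0.13 in knockout and 0.01 ± 0.18 in wild type, a difference of -1.29 (SE 0.16, adjusted p 0.00248), and Hunk's other probe differed by -0.36. Without knockout D and wild-type A the differences were 1.18 for Col27a1 and -1.25 for Hunk. Both lost the call after scaling between arrays, with 0.84 and -1.05 by quantiles and 0.67 and -0.79 by spread.

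The sequence upstream of these genes is shown because they lead the comparison. Promoter windows come from RefSeq on GRCm38.p6 and run from 250 bases before to 50 bases after the start of the transcript, on the gene's own strand. Capitals mark matches to the letters searched on both strands. These were TATAAA for the core promoter box, CCAAT for the box bound by nuclear factor Y, CACGTG for an E-box, TGACGTCA for the cAMP response element and CCGGAA for the core of ETS factor sites. None of them occurs in the windows of Col27a1 at chr4:63215162-63215461 (plus strand) and Hunk at chr16:90386147-90386446 (plus strand), which had a GC content of 61.7% and 75.7%.
Col27a1: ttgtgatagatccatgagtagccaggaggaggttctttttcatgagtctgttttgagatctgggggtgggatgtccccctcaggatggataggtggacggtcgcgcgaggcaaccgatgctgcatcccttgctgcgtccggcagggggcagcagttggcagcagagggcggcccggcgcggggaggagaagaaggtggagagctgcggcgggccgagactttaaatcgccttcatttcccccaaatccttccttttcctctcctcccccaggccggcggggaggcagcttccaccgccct
Hunk: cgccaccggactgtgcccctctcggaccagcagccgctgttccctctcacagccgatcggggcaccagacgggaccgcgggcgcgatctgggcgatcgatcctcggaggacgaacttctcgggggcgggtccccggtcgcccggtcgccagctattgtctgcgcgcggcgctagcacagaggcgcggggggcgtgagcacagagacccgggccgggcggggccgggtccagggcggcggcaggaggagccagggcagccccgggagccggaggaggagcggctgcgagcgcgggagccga

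Gdpd3, Nrg3 and Wfdc2 had the largest rises among the called genes taken by the naming rule, which leaves out predicted genes, probes without a symbol and genes whose genotypes overlap. Gdpd3, a lysophospholipase D that makes lysophosphatidic acid, had ratios of 2.25, 2.48, 2.90, 3.35 and 0.28 in knockout A to E, and of 0.10, 0.00, 0.00, 0.12 and -0.05 in wild-type A to E. Knockout mice A to D were far above the wild type, while knockout E was just above it. The rise was 2.22 (SE 0.49, adjusted p 0.0427), or 4.66-fold. Wfdc2, a small secreted protein with whey acidic protein domains, had ratios of 1.49, 2.11, 1.67, 0.71 and 1.59 in knockout A to E, and of 0.12, -0.60, 0.15, 0.13 and 0.38 in wild-type A to E. Here knockout D was the lowest of its group and still above every wild-type mouse. The rise was 1.48 (SE 0.22, adjusted p 0.0201), or 2.79-fold, and 1.70 without knockout D and wild-type A. Nrg3, a ligand of the receptor ErbB4, had ratios of 1.00, 2.70, 1.32, 2.25 and 1.00 in knockout A to E, and of 0.00 in each wild-type mouse, a rise of 1.65 (SE 0.30, adjusted p 0.0277) that its other probe, at -0.10, did not show. The Nrg3 probe was dim, with 37.1% of probes below it, and its equal wild-type values are those of rounded intensities. The other Nrg3 probe was dimmer still, with 7.67% of probes below it, and could miss a change.

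The other 12 of the 15 largest rises taken by that rule lay between 1.15 and 1.28. They were Ythdf3, which reads N6-methyladenosine marks; Wnt6, a Wnt ligand; Cpxm1, a carboxypeptidase-like secreted protein; Ces1e, a liver carboxylesterase; Tes, a focal adhesion protein; Mogat1, which makes diacylglycerol from monoacylglycerol; Gjd3, a connexin; Rps6ka4, a kinase below the MAP kinases; Bach1, a repressor of antioxidant genes; and Zfp597, Isoc2b and Fhad1. Knockout D held the highest value in each of these 12 genes. Ces1e was the brightest, above 98.4% of probes, with ratios of 0.63, 1.35, 0.81, 2.42 and 1.06 in knockout A to E and 0.37, -0.34, 0.15, 0.09 and 0.01 in wild-type A to E. Its rise was 1.20 (SE 0.27, adjusted p 0.0448), and 0.98 without knockout D and wild-type A. Bach1 had a rise of 1.15 (SE 0.23, adjusted p 0.0343), from ratios of 0.71, 1.34, 0.97, 2.07 and 1.03 in knockout A to E and 0.40, 0.49, -0.13, -0.39 and 0.00 in wild-type A to E. No pair of groups overlapped in this set, as its rule required. Fhad1 was not repeated by its other probes, at 0.16 and 0.06. These were dim, with 15.3% and 4.03% of probes below them, so they could miss a change.

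Dgkh and Nnt had the largest falls among the genes taken by that rule, which leaves out the predicted gene Gm7298. Dgkh, a diacylglycerol kinase, had ratios of -1.83, -2.19, -1.95, -1.53 and -1.06 in knockout A to E, and of 0.12, 0.38, -0.69 and 0.31 in wild-type A, B, C and E, with no value for wild-type D. It fell by 1.74 (difference -1.74, SE 0.26, adjusted p 0.0233), which is 3.34-fold, and passed in 7 of the 10 fits that left out a mouse. Nnt, the mitochondrial transhydrogenase that makes NADPH and that is known to be partly deleted in the C57BL/6J substrain, had ratios of -1.50, -1.93, -1.70, -3.29 and -0.24 in knockout A to E, and of -0.15, 0.01, -0.24, -0.03 and -0.01 in wild-type A to E. Knockout A to D were well below the wild type, and knockout E was level with its lowest mouse to 2 decimals. The difference was -1.65 (SE 0.39, adjusted p 0.0485), and -1.28 without knockout D and wild-type A. Since no label names a substrain, substrain and genotype cannot be told apart.

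Egfr, the epidermal growth factor receptor that hepatocytes carry in abundance, had ratios of -1.0, -0.80, -1.37, -1.57 and -1.04 in knockout A to E, and of -0.31, -0.05, 0.47, -0.40 and 0.00 in wild-type A to E. All knockout mice were below all wild-type mice, and the difference of -1.10 (SE 0.25, adjusted p 0.0427) was -1.06 without knockout D and wild-type A. The other falls among the 15 taken by the rule, between 1.08 and 1.36 in size, were in Pnn, Srsf5 and Hnrpdl, described with the splicing factors; Cdt1, which licenses replication origins; Slc30a1, the zinc exporter of the plasma membrane; Btg3, an antiproliferative protein; Col5a2, a fibrillar collagen chain; Arl13b, a GTPase of cilia; Sybu, a linker of vesicles to kinesin; Dmxl2, a partner of the vacuolar proton pump; Atpbd4, a diphthamide synthase; and Hunk. Atpbd4 was one of the dimmest, with 1.96% of probes below it. Second probes moved the same way for Btg3 (-1.17 and -1.15), Srsf5 (-1.27 and -1.52) and Arl13b (-1.08 and -0.89), and not for Sybu (-1.18 and 0.08).

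Smaller but tight differences made up the rest of the lowest adjusted p-values. Magi1, a scaffold of tight junctions, had ratios of -0.78, -0.87, -0.87, -0.89 and -0.46 in knockout A to E and -0.14, -0.13, -0.13, 0.00 and 0.00 in wild-type A to E, a difference of -0.70 (SE 0.12, adjusted p 0.0233). Paip1, a partner of poly(A)-binding protein, fell by 0.66 (difference -0.66, SE 0.11, adjusted p 0.0233), while its other probe was at -0.25. Myo1e, an unconventional myosin, differed by 0.76 on this probe (adjusted p 0.0233) and by -0.20 on its other probe. Fam83b and Vpreb2 rose by 0.88 and 0.80, on probes with 28.8% and 28.2% of probes below them. Their wild-type values were all 0.00 after rounding. Lrrc16b, a regulator of actin capping, rose by 0.71 (adjusted p 0.0263), with other probes at 0.18, 0.25 and 0.35.

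Vcp, the ATPase that extracts proteins from membranes for degradation, was the gene that passed on more than 1 probe in the same direction. Its ratios were -0.28, -0.23, -0.64, -0.53 and -0.37 in knockout A to E, and 0.09, 0.01, -0.04, 0.19 and 0.14 in wild-type A to E. No knockout mouse reached the lowest wild-type mouse, and the brightness was above 97.2% of probes. The difference was -0.49 (SE 0.10, adjusted p 0.0347) on this probe and -0.53 on the other.

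Members of 48 gene lists were then counted, over pathways of liver and markers of its cell types. Of 1216 distinct members tested, 28 passed (2.3%), beside 1.17% of all genes tested (0.64% that rose and 0.532% that fell). The lists were chosen with earlier results of these data known, so the higher share among their members only describes them and adds no support. Without knockout D 11 members passed. The calls of Gdpd3, Mogat1, Ces1e, Ythdf3, Nnt, Nrg3, Egfr, Col5a2, Sult5a1, Tsc22d3, Mylpf, Cyp7b1, Cyp2c39, Cd36, Apoc2, Pnn, Srsf5 and Srsf10 in the lists below were lost then. Without knockout D the list medians that changed sign were those of lysophospholipid enzymes (0.06), carboxylesterases (0.08), complement and coagulation (0.03), cell cycle (-0.02) and Wnt genes (-0.08). Since 14.9% of all genes were higher and 14.3% lower in the knockout at an unadjusted p under 0.05, with a median difference of 0.00, the counts of the lists at that threshold are set beside those shares. The lists are described and not tested.

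**Figure D3:**
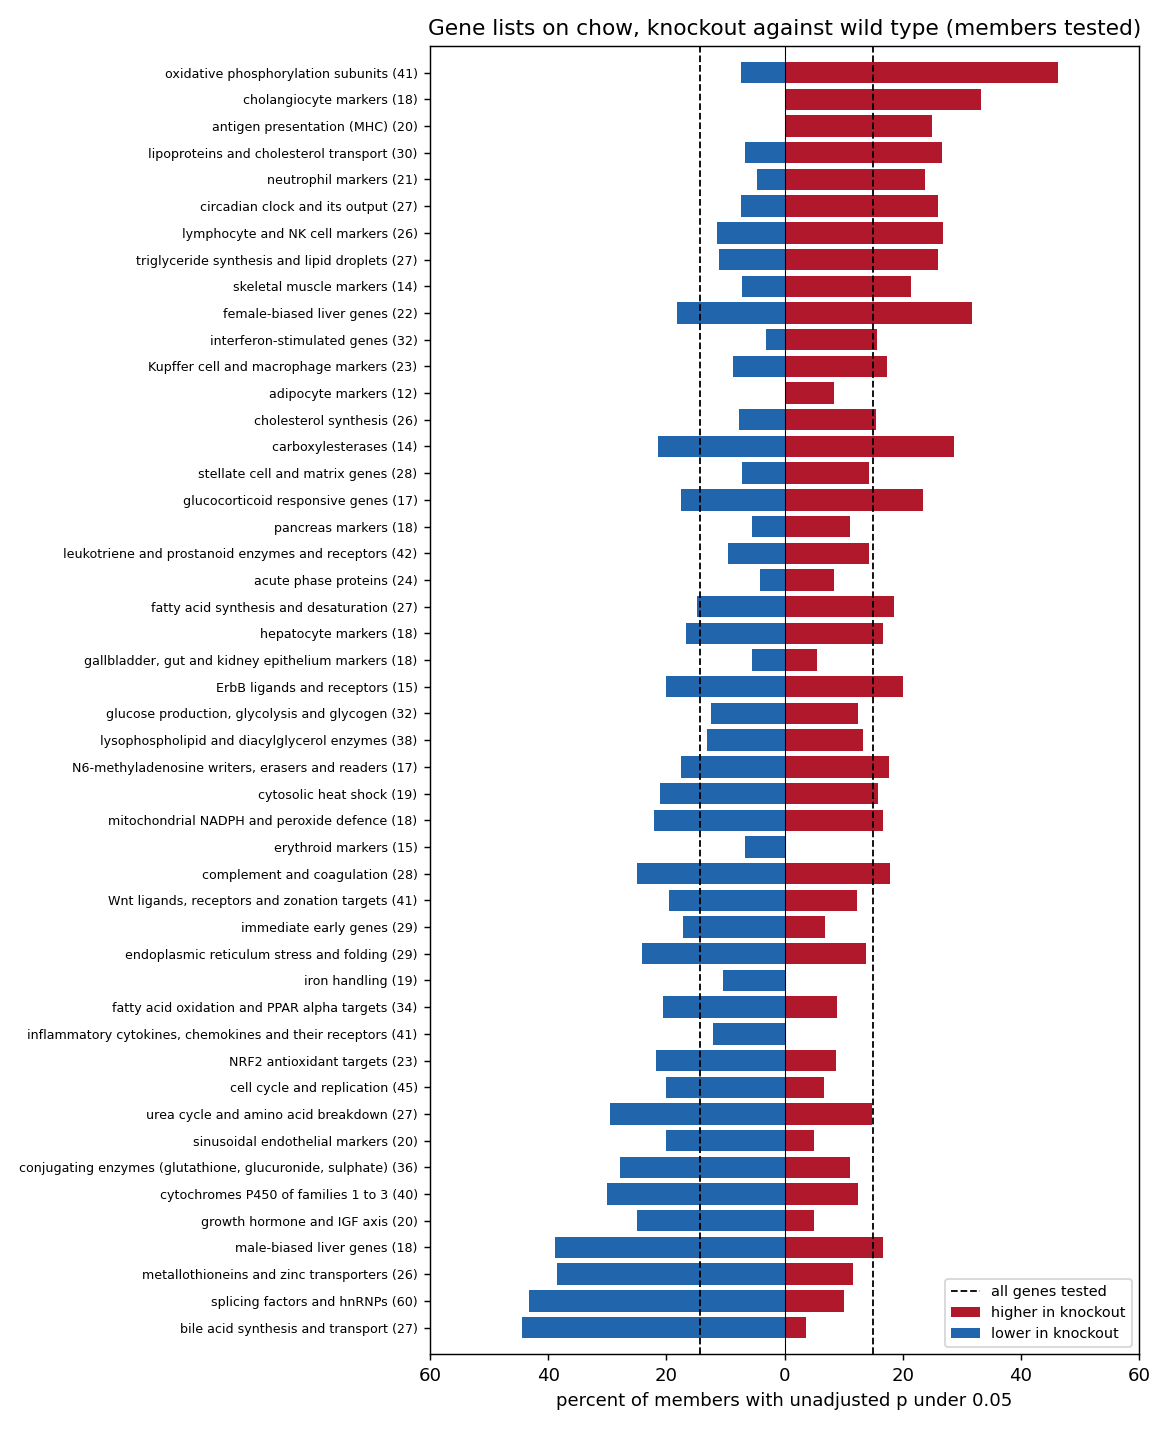
Percent of the tested members of each list with an unadjusted p under 0.05 that were higher (to the right of 0) or lower (to the left) in knockout than in wild type on chow, with the number of members tested in brackets; dashed lines are all genes tested (14.9% higher, 14.3% lower). Splicing factors (43.3% lower) and bile acid genes (44.4% lower) reach farthest to the left and oxidative phosphorylation subunits (46.3% higher) farthest to the right.

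Leukotriene and prostanoid genes did not pass in either direction. Of 42 tested members 0 were called, 6 were higher and 4 lower at an unadjusted p under 0.05 (14.3% and 9.52%), and the median difference was 0.08. Alox5ap, which presents arachidonic acid to 5-lipoxygenase, differed by -0.30 (SE 0.27, adjusted p 0.474), and Lta4h by -0.38 (SE 0.18, adjusted p 0.18). Ltc4s was at 0.50 (SE 0.26, adjusted p 0.22) and the receptor Cysltr1 at 0.50 (SE 0.23, adjusted p 0.164), and knockout D held the highest value of both. The leukotriene B4 receptor Ltb4r1 had ratios of 0.00 in every knockout mouse and of 1.00, 0.00, 0.00, 0.00 and 1.00 in wild-type A to E, at an intensity of 0.02 where 1 step of rounding is a large ratio. These 5 genes were named for their place beside Alox5 and not by the rule for named genes. Alox12e, an epidermal lipoxygenase, and Ptgdr, the prostaglandin D2 receptor, had the lowest p of the list, with differences of 0.52 (adjusted p 0.0758) and 0.33 (adjusted p 0.0892).

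Splicing factors and hnRNPs, the largest of the 48 lists, had the most called members. As a share of members this did not exceed lipoproteins and cholesterol transport (3 of 30) or ErbB ligands and receptors (1 that rose and 1 that fell of 15). Of 60 tested members, 5 fell (Pnn, Srsf5, Hnrpdl, Hnrnpd and Mbnl2) and 1 rose (Srsf10), and at an unadjusted p under 0.05 26 were lower (43.3%) and 6 higher (10%). The median difference was -0.30. Hnrnpd, which binds AU-rich elements of mRNA, had ratios of -0.71, -0.70, -0.73, -0.47 and -0.71 in knockout A to E, and of -0.14, 0.03, -0.05, 0.05 and -0.07 in wild-type A to E. This was one of the tightest separations, with knockout D the closest to the wild type. The difference was -0.63 (SE 0.11, adjusted p 0.0277), and -0.71 without knockout D and wild-type A. Srsf5, a serine- and arginine-rich splicing factor, had ratios of -0.74, -1.52, -1.24, -2.15 and -1.14 in knockout A to E, and of -0.65, -0.22, 0.17, 0.35 and -0.07 in wild-type A to E. Knockout A was only just below wild-type A, and the difference was -1.27 (SE 0.27, adjusted p 0.0406). Pnn, an SR-related protein of nuclear speckles, fell by 1.36 (difference -1.36, adjusted p 0.0399), Hnrpdl, a relative of Hnrnpd, by 1.27 (difference -1.27, adjusted p 0.0277), and Mbnl2, a muscleblind splicing regulator, by 0.78 (difference -0.78, adjusted p 0.0427). Srsf10, which represses splicing after heat shock, rose by 0.43 (adjusted p 0.0487), and its other probe was at -0.02. Without knockout D the list median was -0.19, with 3 members that fell and 0 that rose; without both doubted mice it was -0.21, with 5 that fell. The list medians by mouse were -0.20, -0.32, -0.11, -0.60 and -0.26 in knockout A to E, and -0.10, 0.03, -0.11, 0.00 and 0.00 in wild-type A to E, so knockout C was level with wild-type C. The median stayed negative after scaling between arrays, at -0.12 by quantiles and -0.11 by spread.

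Promoter windows of the 5 splicing genes that fell are printed to show what they share and where they differ. Pnn lies at chr12:59066669-59066968 (plus strand), Srsf5 at chr12:80945249-80945548 (plus strand), Hnrnpd at chr5:99978889-99979188 (minus strand), Hnrpdl, under its current symbol Hnrnpdl, at chr5:100039173-100039472 (minus strand) and Mbnl2 at chr14:120275419-120275718 (plus strand), all on GRCm38.p6 with the same marks as above. ATTGG and TTCCGG are the other-strand forms of CCAAT and CCGGAA.
Pnn: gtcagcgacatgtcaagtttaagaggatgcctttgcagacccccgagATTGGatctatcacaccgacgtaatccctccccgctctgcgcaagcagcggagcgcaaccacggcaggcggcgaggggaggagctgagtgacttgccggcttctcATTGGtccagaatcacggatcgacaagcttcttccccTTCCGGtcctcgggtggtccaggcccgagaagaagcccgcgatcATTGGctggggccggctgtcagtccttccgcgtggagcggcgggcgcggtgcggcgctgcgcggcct
Srsf5: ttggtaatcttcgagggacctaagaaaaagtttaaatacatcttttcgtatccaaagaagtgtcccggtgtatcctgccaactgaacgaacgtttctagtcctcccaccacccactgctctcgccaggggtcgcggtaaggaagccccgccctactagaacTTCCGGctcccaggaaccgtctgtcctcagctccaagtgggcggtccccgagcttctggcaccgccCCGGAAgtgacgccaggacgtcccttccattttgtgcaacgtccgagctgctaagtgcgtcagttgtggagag
Hnrnpd: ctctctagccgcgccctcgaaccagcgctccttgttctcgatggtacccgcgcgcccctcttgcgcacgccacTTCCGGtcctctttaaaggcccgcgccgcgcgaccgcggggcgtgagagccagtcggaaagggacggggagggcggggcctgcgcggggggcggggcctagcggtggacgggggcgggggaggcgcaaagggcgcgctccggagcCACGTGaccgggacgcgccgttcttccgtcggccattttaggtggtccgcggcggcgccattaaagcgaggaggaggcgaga
Hnrnpdl: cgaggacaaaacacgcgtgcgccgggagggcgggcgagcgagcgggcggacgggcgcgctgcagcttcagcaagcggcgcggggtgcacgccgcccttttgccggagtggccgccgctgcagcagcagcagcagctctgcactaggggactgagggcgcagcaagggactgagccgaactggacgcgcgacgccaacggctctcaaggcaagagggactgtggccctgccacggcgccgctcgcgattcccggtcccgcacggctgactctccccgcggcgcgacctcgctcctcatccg
Mbnl2: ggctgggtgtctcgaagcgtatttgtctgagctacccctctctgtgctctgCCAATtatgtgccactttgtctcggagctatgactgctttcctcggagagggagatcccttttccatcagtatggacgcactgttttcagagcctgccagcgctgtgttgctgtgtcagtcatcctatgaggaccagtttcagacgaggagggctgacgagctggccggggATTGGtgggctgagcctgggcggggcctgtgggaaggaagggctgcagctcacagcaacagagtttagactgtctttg
The windows of Pnn, Srsf5 and Hnrnpd hold the ETS core, those of Pnn and Mbnl2 the CCAAT box, that of Hnrnpd an E-box, and that of Hnrnpdl none of the letters searched. The ETS core occurred in 30.7% of 75 called genes that fell and in 19.6% of 92 that rose, beside 14.9% of all 32851 promoter windows and 16.7% of 27025 genes. For the CCAAT box the shares were 52%, 48.9%, 37.4% and 41.1%, for the E-box 12%, 8.7%, 7.15% and 8.09%, for the core promoter box 12%, 15.2%, 13.6% and 15.7%, and for the cAMP response element 2.67%, 1.09%, 1.79% and 2.03%, in the same order. The promoter windows and genes set beside the called genes are all those of the reference, and not only the 18606 genes tested on the arrays. The sets are therefore unlike. These shares are descriptions of letters in a window and were not tested.

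Oxidative phosphorylation subunits were higher more often than lower, though 0 of 41 tested members passed. At an unadjusted p under 0.05, 19 were higher (46.3%) and 3 lower (7.32%), with a median difference of 0.16. Ndufb10, a subunit of complex I, differed by 0.61 (SE 0.18, adjusted p 0.0729) and Cyc1, cytochrome c1 of complex III, by 0.35 (SE 0.12, adjusted p 0.1). The medians by mouse were 0.14, 0.34, 0.10, 0.18 and 0.10 in knockout A to E, and 0.02, -0.15, 0.13, 0.06 and 0.00 in wild-type A to E. Wild-type C lay within the range of the knockout mice, and without knockout D 15 members were higher and 0 lower at that threshold. The median remained positive after scaling, at 0.10 by quantiles and 0.07 by spread.

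Bile acid genes lay lower in the knockout, with 1 call. Cyp7b1, the oxysterol 7-alpha-hydroxylase of the acidic pathway of bile acid synthesis, had ratios of -0.89, -1.26, -0.83, -1.34 and -0.64 in knockout A to E, and of -0.44, -0.01, 0.14, -0.08 and 0.24 in wild-type A to E. The groups did not overlap, and the fall was 0.96 (difference -0.96, SE 0.20, adjusted p 0.0399). It was -0.98 without knockout D and wild-type A. Hsd3b7, the next enzyme of the shared route, differed by -0.57 (SE 0.14, adjusted p 0.0519). Of 27 members tested 12 were lower and 1 higher at an unadjusted p under 0.05 (44.4% and 3.7%), and the median was -0.29. Without knockout D no member was called by limma, 9 were lower at that threshold and the median was -0.17. The median was -0.10 and -0.11 after scaling by quantiles and by spread.

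Genes of lipoproteins and cholesterol transport went the other way, with 3 of 30 that rose and 0 that fell. Soat2, which esterifies cholesterol for lipoprotein assembly, had ratios of 0.90, 1.06, 0.61, 0.81 and 0.52 in knockout A to E, and of 0.07, -0.23, 0.29, 0.10 and -0.03 in wild-type A to E, without overlap. Its rise was 0.74 (SE 0.14, adjusted p 0.0314) with and without knockout D and wild-type A. Cd36, a fatty acid uptake protein, had ratios of 0.99, 0.94, 0.93, 0.52 and 0.80 in knockout A to E and of -0.14, -0.26, 0.22, -0.01 and 0.59 in wild-type A to E, where wild-type E lay above knockout D. It rose by 0.76 (SE 0.18, adjusted p 0.0474). Apoc2, the cofactor of lipoprotein lipase, rose by 0.85 (SE 0.20, adjusted p 0.0486) and by 0.69 without the doubted mice. The list median was 0.25, and 0.20 and 0.11 after scaling by quantiles and by spread. Without knockout D 1 member rose and the median was 0.15. In the neighbouring lists, triglyceride synthesis and lipid droplets had 1 of 27 that rose (Mogat1) and a median of 0.19, fatty acid synthesis 0 of 27 called and 0.05, fatty acid oxidation and PPAR alpha targets 0 of 34 and -0.13, and cholesterol synthesis 0 of 26 and 0.10. Lysophospholipid and diacylglycerol enzymes had 1 of 38 that rose (Gdpd3) and 1 that fell (Dgkh), and a median of -0.01 that was 0.06 by quantiles and 0.04 by spread. Of genes in these lists that did not pass, Acaca, the first enzyme of fatty acid synthesis, stood at 0.95 (adjusted p 0.057), Pnpla3, a lipid droplet protein, at 0.78 (adjusted p 0.0786), Cyp4a14, a PPAR alpha target, at -0.67 (adjusted p 0.0574), and Insig1, which holds back cholesterol synthesis, at 0.70 (adjusted p 0.115).

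**Figure D4:**
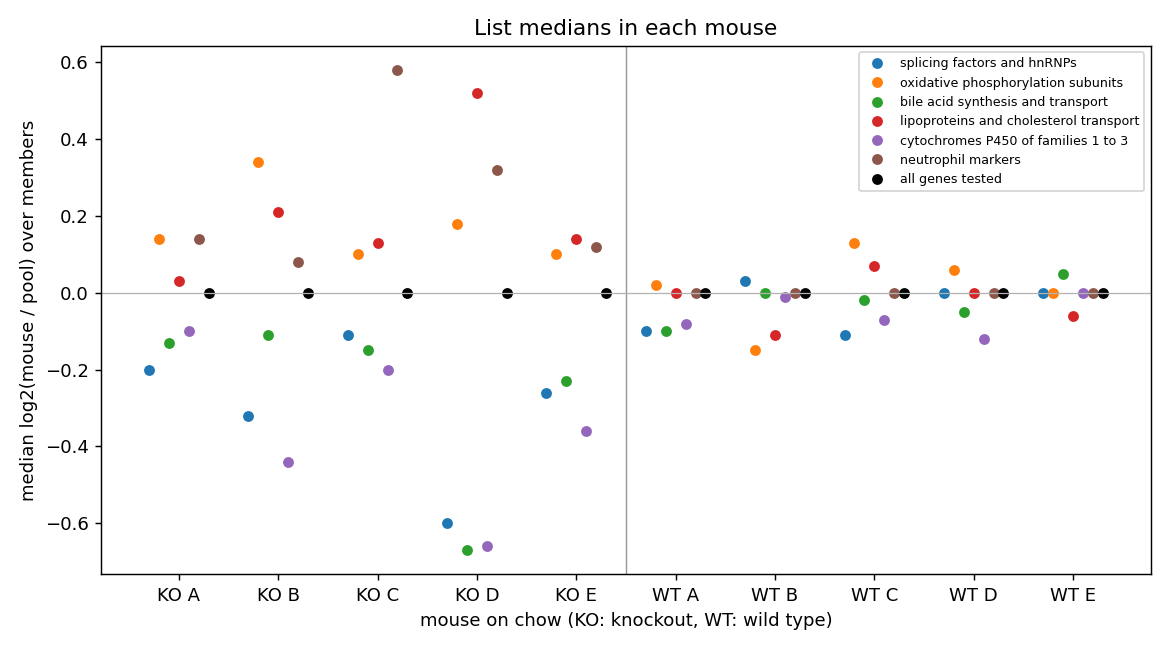
Median log2 ratio of mouse to pool over the members of 6 lists and over all genes tested, in each knockout (KO, left) and wild-type (WT, right) mouse on chow. Splicing factors lie lowest in knockout D (-0.60) and at -0.11 in both knockout C and wild-type C, while lipoprotein genes lie highest in knockout D (0.52).

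Cytochromes P450 were lower more often than higher. Of 40 cytochromes P450 of families 1 to 3, 2 fell and 0 rose, with 12 lower (30%) and 5 higher (12.5%) at an unadjusted p under 0.05 and a median of -0.24. Without knockout D 1 fell, 7 were lower at that threshold and the median was -0.15. Cyp2c39, a retinoic acid hydroxylase, had ratios of -1.0, -0.90, -0.53, -1.26 and -0.79 in knockout A to E, and of -0.14, 0.06, -0.40, 0.00 and 0.27 in wild-type A to E, a difference of -0.86 (SE 0.17, adjusted p 0.0331) without overlap. Cyp2c69, a relative of it, differed by -1.01 (SE 0.20, adjusted p 0.0347), and by -0.67 without knockout D and wild-type A. Members of this family are near-identical copies, so their probes may share signal. Of 36 conjugating enzymes 1 fell, the sulfotransferase Sult5a1, by 0.91 (difference -0.91, SE 0.21, adjusted p 0.0474), with 10 lower and 4 higher at an unadjusted p under 0.05 and a median of -0.14 that turned to 0.01 by quantiles. Without knockout D 3 were lower and 5 higher at that threshold. Sult2a2, a sulfotransferase of steroids that is higher in female liver, had ratios of 1.96, 2.47, 2.22, 3.13 and 1.53 in knockout A to E and of 0.63, 1.54, -0.53, -1.04 and -1.64 in wild-type A to E. Its difference of 2.47 (SE 0.61, adjusted p 0.0519) did not pass, and wild-type B was level with knockout E. Its other probes were at 1.01 (adjusted p 0.344) and -0.08 (adjusted p 0.812). Of 14 carboxylesterases 1 rose (Ces1e), with 4 higher and 3 lower at that threshold and a median of -0.04 that was 0.09 by quantiles and 0.07 by spread, and Ces3b stood at -1.46 (adjusted p 0.0622).

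Sex-biased and hormone-driven genes gave few calls. Of 18 male-biased liver genes 1 fell (Cyp7b1) and of 22 female-biased genes 1 fell (Cyp2c69), with medians of -0.10 each. At an unadjusted p under 0.05, 7 male-biased genes were lower (38.9%) and 3 higher (16.7%), while 7 female-biased genes were higher (31.8%) and 4 lower (18.2%). The female-biased median turned to 0.01 by quantiles and 0.15 by spread. Susd4, a complement regulator among the male-biased genes, was at -1.23 (adjusted p 0.0588). The growth hormone and IGF axis had 0 of 20 called and a median of -0.35, where Socs2, a growth hormone target that curbs its receptor, had ratios of -1.01, -2.01, -1.01, -1.81 and -1.0 in knockout A to E and of -0.30, 0.54, -0.01, 0.01 and -0.54 in wild-type A to E. These groups did not overlap, and the difference of -1.31 had an adjusted p of 0.0519. Among 17 glucocorticoid responsive genes 1 rose, Tsc22d3, and the median was -0.02. Clock genes had 0 of 27 called and a median of 0.14, and immediate early genes 0 of 29 and 0.01. Rgs16, a signalling gene that follows feeding and the clock, stood at 1.84 (adjusted p 0.061), with wild-type A at 1.70 beside -0.77 to -0.31 in the other wild-type mice. Cdkn1a, the cell cycle inhibitor p21, was at 1.08 (adjusted p 0.0519), without overlap, and Klf4, an immediate early transcription factor, at -1.07 (adjusted p 0.0539).

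Tsc22d3, the glucocorticoid-induced leucine zipper, had ratios of 0.64, 0.60, 0.65, 0.86 and 0.63 in knockout A to E, and of -0.06, -0.26, 0.11, 0.05 and 0.10 in wild-type A to E. The knockout mice were nearly equal to one another, and all were above all wild-type mice. The rise was 0.68 (SE 0.13, adjusted p 0.0341), and 0.63 without knockout D and wild-type A.

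Metabolic and stress lists held few other calls. Urea cycle and amino acid breakdown had 0 of 27 called and a median of -0.21, with Slc25a15, the ornithine carrier, at -1.07 (adjusted p 0.0519). Glucose production, glycolysis and glycogen had 0 of 32 and 0.01, and G6pc, which releases glucose, was at -0.79 (adjusted p 0.0763). Mitochondrial NADPH and peroxide defence had 1 of 18 that fell (Nnt) and -0.22, NRF2 antioxidant targets 0 of 23 and -0.11, and iron handling 0 of 19 and -0.12. Metallothioneins and zinc transporters had 1 of 26 that fell, Slc30a1, by 1.23 (difference -1.23, SE 0.27, adjusted p 0.0427), while 10 were lower and 3 higher at an unadjusted p under 0.05 (38.5% and 11.5%) and the median was -0.09. Acute phase proteins had 0 of 24 and -0.23 (-0.08 without knockout D), complement and coagulation 0 of 28 and -0.02 (0.02 by quantiles), endoplasmic reticulum stress and folding 0 of 29 and -0.11, and cytosolic heat shock 0 of 19 and -0.11 (0.01 by spread). N6-methyladenosine genes had 1 of 17 that rose (Ythdf3) and 0.02 (-0.02 by spread), cell cycle and replication 1 of 45 that fell (Cdt1) and 0.06 (-0.02 and -0.03), Wnt genes 1 of 41 that rose (Wnt6) and 0.05 (-0.03 and -0.07), and ErbB ligands and receptors 1 of 15 that rose (Nrg3), 1 that fell (Egfr) and 0.01 (-0.01 and -0.03).

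Immune lists gave 1 call in all. Interferon-stimulated genes had 0 of 32 called and a median of 0.12, and antigen presentation 0 of 20 and 0.09, with 5 members higher (25%) and 0 lower at an unadjusted p under 0.05. Cytokines, chemokines and their receptors had 1 of 41 that fell, Irak2, with 0 higher and 5 lower at an unadjusted p under 0.05 and a median of -0.03, and Il1b, the cytokine interleukin 1 beta, was at -1.16 (adjusted p 0.0846). Neutrophil markers had 0 of 21 called, 5 higher and 1 lower at an unadjusted p under 0.05 (23.8% and 4.76%), and a median of 0.20. Ngp, a granule protein of neutrophils, had ratios of 2.32, 1.58, 3.98, 3.89 and 0.74 in knockout A to E, and of 0.58, 0.00, 0.00, 0.00 and -0.58 in wild-type A to E. All knockout mice were above all wild-type mice, yet the difference of 2.50 (SE 0.80) had an adjusted p of 0.0845. The granule peptide Camp was at 2.32 (adjusted p 0.0997), also without overlap, and the calcium-binding S100a9 at 1.84 (adjusted p 0.112). The summed intensity of the 20 neutrophil markers measured on every chow array was 1.51 to 5.91 in knockout and 1.05 to 1.89 in wild type. Of the 21 tested, 13 had a mean intensity below that of the median probe tested.

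Markers of other cells did not separate the genotypes as groups. Kupffer cell and macrophage markers had 0 of 23 called and a median of 0.11, with the complement subunit C1qa at 0.68 (adjusted p 0.0827) and the scavenger receptor Msr1 at -1.10 (adjusted p 0.0515). Lymphocyte and NK cell markers had 0 of 26 and 0.14, and their summed intensity was 46.2 in knockout D, against 9.57 to 11.3 in the other knockout mice and 8.74 to 11.5 in wild type, where Cd4 had a ratio of 2.40 in knockout D. Stellate cell and matrix genes had 1 of 28 that fell (Col5a2) and 0.02, and the collagen Col1a1 was at 1.28 (adjusted p 0.0574). Cholangiocyte markers had 0 of 18 and 0.17, with 6 higher and 0 lower at an unadjusted p under 0.05 (33.3%), among them the keratin Krt19 at 0.60 (adjusted p 0.0757) and the bile duct factor Sox9 at 0.63 (adjusted p 0.0989). By sign alone, 14 members were higher and 4 lower. Spp1, one of the 3 brightest members, went the other way at -0.56 (adjusted p 0.195). Sinusoidal endothelial markers had 0 of 20 and -0.08 (0.04 and 0.09 by the 2 scalings), and erythroid markers 0 of 15 and -0.11. Hepatocyte markers had 0 of 18 and -0.09, and their sums were 58.9 to 124 in knockout, lowest in D, and 81 to 140 in wild type. Skeletal muscle markers had 1 of 14 that fell, Mylpf on a probe with 28% of probes below it, and a median of 0.14 (-0.02 by spread). By sign alone, 10 members were higher and 4 lower. The brighter Acta1 was at 1.19 (adjusted p 0.0574) and Pvalb at 0.57 (adjusted p 0.165), with ratios of 2.66 and 1.96 in knockout D. The summed intensity of the muscle markers was 15.3 in knockout D, 2.94 to 6.36 in the other knockout mice and 2.44 to 3.78 in wild type. Adipocyte markers had 0 of 12 and 0.15, pancreas markers 0 of 18 and 0.01 (-0.01 and -0.03), and gallbladder, gut and kidney epithelium markers 0 of 18 and 0.00 (-0.03 and -0.01). The part of these markers in the results for the other genes was not tested.

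On the atherogenic diet, where all arrays and the pool are different, the same genotypes gave 5 called genes of 18606 (0.0269%). Tsc22d3 was the 1 gene called on both diets, at 0.68 on chow and 1.06 on the atherogenic diet. Of the 263 probes called on chow, 238 (90.5%) had a difference of the same sign on the atherogenic diet, beside 66% of all probes tested. Gdpd3 kept its size there, at 2.15 beside 2.22 on chow. Srsf5 was at -1.10 there and Nnt at -1.15. A test of the difference between the diets passed at 0 of 23344 probes by limma (lowest adjusted p 0.527), with 1347 at an unadjusted p under 0.05 (5.77%) and 1 probe called with array weights. Among the named genes called on chow the lowest unadjusted p of this test were those of Col27a1 (1.07 on chow and 0.28 on the atherogenic diet, p 0.000282) and Wfdc2 (1.48 and 0.25, p 0.00133), followed by Cyp7b1 (-0.96 and 0.14, p 0.00162). A gene picked for a large value on chow is apt to have a smaller one elsewhere, so these p-values are too small, and none shows that an effect is particular to chow.

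**Figure D5:**
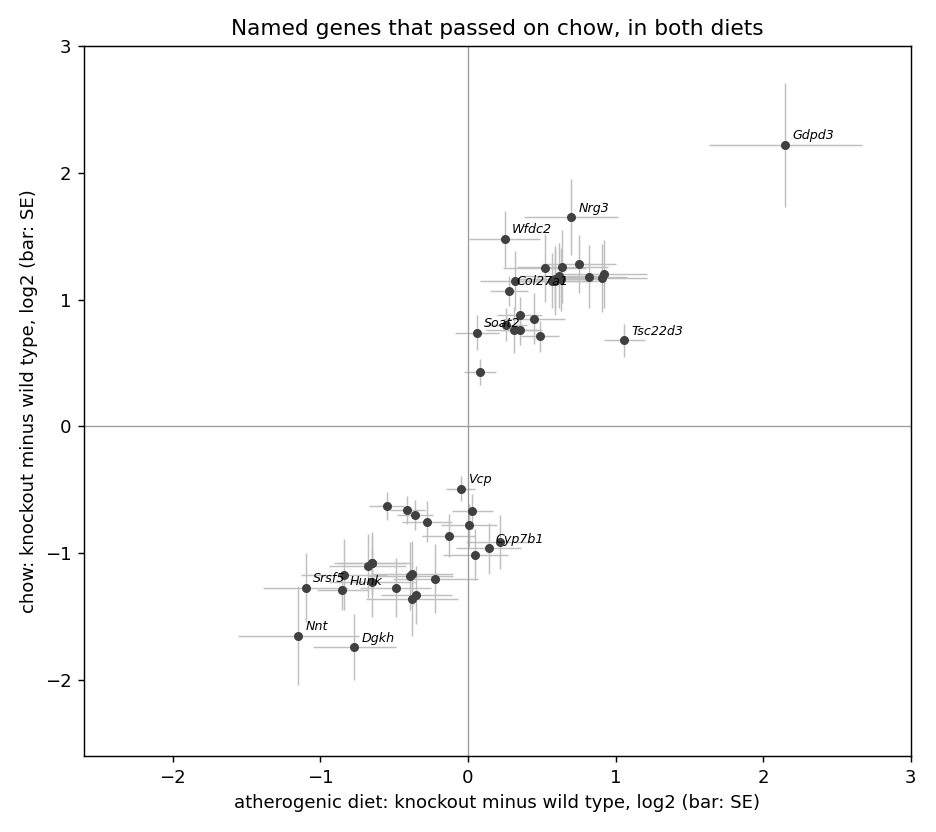
Difference between knockout and wild type on chow (vertical axis) against that on the atherogenic diet (horizontal axis), both in log2 units with SE bars, for the 51 named genes that passed on chow. Most genes keep their sign on both diets with a smaller value on the atherogenic diet; Gdpd3 (2.22 and 2.15) is as far from 0 on both, and Col27a1 and Wfdc2 lie close to 0 on the atherogenic diet.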

How the data were processed

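Liver RNA of single mice (Cy5) and a wild-type pool (Cy3) was amplified in 2 rounds and hybridised to 2-colour arrays, per the labels' protocols. The submitters' processing notes name Agilent Feature Extraction 8.5.1.1. The authors deposited a table of the intensity of both channels and of a p-value per probe and array, per the file headers, without stating how these intensities were scaled. The deposited series matrix holds log10 ratios of mouse over pool, whose largest gap to the table was 0.017 on the log2 scale. Of 23568 probes, 20405 have a symbol. The table's columns could be matched to groups, not to single samples of the series.

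The log2 ratio of mouse to pool was computed from the deposited intensities with no further normalisation, since every array's median ratio was 0. A 4-group model over all 19 arrays was fitted by lmFit and eBayes of limma 3.58.1 under R 4.3.3, with Benjamini-Hochberg adjustment over the 23344 probes that had at least 3 values in each group; 224 were left out. A call is an adjusted p under 0.05. The fit was run on simulated data as a check of the code. There the probes were independent and each probe had the same spread on all arrays. It therefore cannot show how unequal arrays, such as that of knockout D, affect the calls. Alox5 was also tested with an exact permutation test (SciPy 1.17.1). A gene with several probes is represented by the probe with the lowest p on chow. Of the intensities on chow, 56.8% were below 0.1 and are rounded to few digits. The arrays are single mice per the labels, whose litters and cages are not given. The limma p-values use a spread between mice that is pooled over the 4 groups of both diets and taken as equal in each. The chow arrays of the 2 genotypes differed in spread, as given above, and 5 probes passed when the 10 chow arrays were fitted alone. Alternatives covered the arrays fitted, the variance model, array weights, scaling between arrays, an added intensity, probe filters, the series matrix and leaving out mice.

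Genes were named by rule: Alox5, then the called genes whose groups did not overlap with the 15 largest values in each direction (predicted, clone and accession names left out), the 10 lowest adjusted p, genes called on 2 or more probes in 1 direction, called members of the lists (up to 6 per list, or else the lowest p up to 2) and, for cell type markers, the 3 brightest members. Genes named outside this rule are marked as such, and a few genes that met a rule are not reported here. The members and lists were chosen with earlier results of these data known.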

Additional observations from a re-analysis of the deposited data

Results flagged for a closer look

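Among 298 groups of 5 mice (or fewer where values were missing) over the named genes, 32 held a mouse whose gap to the next was wide beside the group's range, by Dixon's test at 95%, which chance gives in about 5% of groups. Knockout D was that mouse in 10 and wild-type A in 8, and 11 of the 32 concerned genes called on chow.

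In knockout D, Tes stood at 1.91 (other knockouts 0.74 to 1.00), Hnrpdl at -2.39 (-1.12 to -0.82), Tsc22d3 at 0.86 (0.60 to 0.65), Cyc1 at 0.90 (0.14 to 0.34) and Srsf10 at 0.79 (0.32 to 0.44). In the same mouse Timp3, a metalloprotease inhibitor, stood at -0.70 (-0.04 to 0.19), Reln, a stellate cell marker, at 0.90 (-0.37 to -0.06) and Mylpf at -1.0 (-0.58 in the others). Hnrnpd at -0.47 (-0.73 to -0.70) and Scara5, a ferritin receptor, at -0.58 (-1.17 to -1.0) lay nearer to the pool there than in the other knockouts.

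In the remaining knockout mice, Col5a2 stood at -2.0 (-1.0 to -0.74) and Atpbd4 at -1.58 (-1.01 to -0.82) in B, Ppara, the fatty acid receptor, at 0.70 (0.33 to 0.39) in C, Pparg, its relative in fat, at 0.45 (0.05 to 0.12) in A, and Magi1 at -0.46 (-0.89 to -0.78) and Spna1, erythroid spectrin, at -1.0 (-0.05 to 0.00) in E.

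In wild-type A, Col27a1 stood at 0.32 (0.00 in the others), Srebf2, which drives cholesterol synthesis, at 0.29 (-0.04 to 0.02), Rgs16 at 1.70 (-0.77 to -0.31), G6pc at -0.61 (0.04 to 0.28), Slc25a15 at -1.0 (-0.22 to -0.10) and Hspd1, a mitochondrial chaperone, at -0.50 (-0.18 to -0.09). Fabp6 at 0.26 and Umod at -0.32, markers of gut and kidney, were at 0.00 in the other wild-type mice. In all 8 of these genes the value of wild-type A had the sign of the knockout difference on the same probe. For Hspd1 that difference was -0.91, while its other probe differed by 0.73 (adjusted p 0.134), so its direction is unsettled. In wild-type B, Wfdc2 stood at -0.60 (0.12 to 0.38), Clec4g, a sinusoidal lectin, at -0.67 (-0.03 to 0.23), Cela1, a pancreatic elastase, at -0.28 (0.21 to 0.38), and Scara5 at 0.58 and Spna1 at 1.00 (0.00 in the others). In wild-type D, Wnt5a, a Wnt ligand, stood at 1.00 (0.00 in the others) and Cd24a, a bile duct marker, at -0.14 (0.08 to 0.14), and in wild-type C, Kdr, a receptor of vascular growth factor, at 0.23 (-0.27 to -0.15).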

How the results depend on the processing

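The count of 263 called probes on chow was 5 with only the chow arrays, 413 with an intensity trend, 976 with array weights, 0 after quantile and 0 after scale normalisation between arrays, 867 over the probes brighter than the median, and 5 and 0 on the chow arrays of the series matrix without and with the replicate block (lowest adjusted p 0.43 with the block, 2550 probes at an unadjusted p under 0.05). It stayed within 1.5 times under robust estimation, 0.05 added to both intensities, no filter, averaging per gene and the series matrix (176 to 275). Leaving out 1 mouse gave 3 to 3854. A random block of the number in the column headers' animal marks, whose meaning is not given, gave 2920; this alternative and the joint omission of knockout D and wild-type A were chosen after seeing the data. The 28 called list members became 1, 45, 72, 0, 0 and 82 under the first 6 of these settings, 1 and 0 on the series matrix's chow arrays without and with the replicate block, and 0 to 227 without 1 mouse. The 5 genes called on the atherogenic diet became 3 probes under robust estimation, 389 with array weights, 22 and 1 after quantile and scale normalisation, 17 with 0.05 added and 13 over the brighter probes, and 3 to 85 without 1 mouse. The test between diets gave 1 probe with array weights and 0 to 1 without 1 mouse, and the Alox5 difference stayed between 0.13 and 0.33 without 1 mouse. The cause of these shifts was not tested.

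Of the 51 named genes called on chow, all lost the call under both normalisations and the block, 49 with only the chow arrays, 18 with 0.05 added, 5 under robust estimation, 16 without knockout D and wild-type A, and 0 with an intensity trend, array weights, no filter or the series matrix; none of the 51 changed sign in any setting run. In the series matrix, deviations from the group mean on chow correlated over probes between same-numbered knockout and wild-type samples. The values were -0.09, -0.11, -0.03, -0.13 and -0.43 for numbers 1 to 5. They show no positive pairing, but 5 values that share group means cannot settle whether the numbers pair the samples. Uncalled genes that changed sign were Cd3e (-0.02 by quantiles and by scale), Kdr (0.06, 0.08), Clec4g (0.03, 0.09), Car2 (0.08 by scale), Cela1 (-0.03 by scale), Car1 (0.13, 0.11, and 0.03 with array weights), Timp3 (0.05 with array weights, 0.07 without both mice), Reln (-0.06, -0.06) and Fabp4 (-0.00 with the random block). Ranges without 1 mouse that crossed 0 were -0.18 to 0.05 for Timp3, -0.12 to 0.20 for Reln, -0.22 to 0.54 for Apoa1, -0.24 to 0.03 for Apoa2, -0.16 to 0.16 for Hba-a1, -0.11 to 0.08 for Car1 and -0.07 to 0.14 for Fabp4. On chow 56.8% of intensities were below 0.1, where rounding limits what the arrays resolve.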
